A study of Mus musculus with 60 samples.

Results

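The lysosome is the acidic compartment in which mammalian cells break down proteins, glycans and lipids, and 31 genes of its enzymes and membrane proteins were followed across 6 strains of undifferentiated mouse embryonal carcinoma cells. The genes were chosen by name, with earlier results of these data known, and read from probe sets whose annotated gene symbol was exactly that of a member. Shares of members set beside those of all genes are therefore descriptions. Of the 31 genes, 30 had such a probe set, 29 were bright enough to be tested, and 13181 genes were tested in all. The 29 comprised 9 of 9 proteases, 7 of 8 glycosidases, 6 of 6 genes of lipid handling, 5 of 6 membrane proteins, the secreted precursor Grn and the proton pump accessory subunit Atp6ap1. The 2 members without a test were Cd63, a membrane protein with no probe set of exactly that symbol, and Gusb, the β-glucuronidase, whose 2 probe sets lay above the detection floor on 0 and 4 of 30 arrays.

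Embryonal carcinoma cells are the stem cells of teratocarcinomas. The strains were CL6G26, CL6G36, CL6G45 and CL6G52, which are 4 sublines of P19CL6, then P19CL6 itself, a substrain of P19 known for forming beating heart muscle, and P19. All came from a male C3H embryo, carried no engineered allele or treatment in the labels, and were kept undifferentiated in serum-containing medium. The labels do not say how the sublines were derived, nor whether each is 1 clone. Each strain had 5 biological replicates, and each replicate was hybridised to an Affymetrix MOE430A and an MOE430B array, 60 arrays in all. The labels do not tie replicates to separate cultures, so p-values here reflect only how far these samples spread, which may be technical.

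Newly made lysosomal enzymes are tagged with mannose 6-phosphate in the Golgi, carried to endosomes by mannose 6-phosphate receptors and matured in the lysosome, where the vacuolar ATPase pumps in the protons that the enzymes need. Many lysosomal genes are known to carry a short palindromic element, with TCACGTG at its core, that is bound by the transcription factors TFEB, TFE3 and MITF. Enzymes of the lysosome are made in most cell types, and loss of single enzymes causes storage diseases.

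Values are log2 signals of quantile normalized arrays, so that a difference of 1 is a 2-fold change in signal. The floor, a signal below which a probe set was taken as not detected, was a log2 signal of 4.61 on MOE430A, the array type from which all 29 members were read. The cells were checked against marker lists. Of 10 tested markers of pluripotent embryonal carcinoma cells, 9 were above the floor on each of the 30 arrays, while the 6 tested of 14 named markers of macrophages, a cell type rich in lysosomes, summed to 149 to 224 in linear signal and did not pass the test in any of the 5 comparisons made here. Markers of other cell types were detected too. Depending on the strain, 7 to 9 of 11 extraembryonic endoderm markers lay above the floor on all its arrays. So did 3 of 5 fibroblast, 2 to 3 of 5 neural and 1 to 2 of the 6 macrophage markers. Some arrays stood apart from their strain. On the first principal component of MOE430A, P19 replicates 4 and 5 scored 13.6 and 12.2, among the P19CL6 arrays at 1.69 to 13.8 and away from P19 replicates 1 to 3 at 45.7 to 50.2. CL6G52 replicate 1 scored -22.3, among the CL6G36 and CL6G45 arrays at -24.9 to -19.4 and away from the other 4 CL6G52 arrays at 3.43 to 5.13. That array had the highest signal of its strain for Ctsa, Tpp1 and Atp6ap1, at 8.34, 9.5 and 8.19, against 7.88, 9.14 and 7.68 on the next CL6G52 array, while the CL6G45 arrays of these genes ran to 8.31, 9.47 and 8.16. Of the other members higher in CL6G36 than in P19CL6, Ctsd, Ctsl, Neu1, Npc1 and Asah1 also read highest on that array. Ctsz, Lamp1 and Grn, at 8.77, 10.14 and 7.78, did not. P19CL6 replicates 1 and 2 scored 3.81 and 1.69, against 11.6 to 13.8 for replicates 3 to 5. Counts of members in CL6G52 and in P19CL6 against P19 are given with and without the arrays that stood apart.

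Of the 29 tested members, 24 lay above the floor on all 30 arrays. The weak members were the protease Ctsh and the hexosaminidase subunit Hexa, each above the floor on 6 arrays, Ctsc on 18, and the glycosidases Naglu and Glb1 on 25 and 26. A test needed 5 arrays above the floor, and of the 6 for Hexa, 3 were P19 replicates 1 to 3. Hexa was thus bright enough for a test only through those P19 arrays.

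The promoters of the members were read because the element of the TFEB family is the best known regulatory sequence of lysosomal genes. The letters TCACGTG were searched on both strands, as TCACGTG or CACGTGA, in the window of 250 bases before to 50 after each RefSeq start in build GRCm38.p6. Of the 26 members with an entry, 8 held the element, which is 30.8%, beside 4.29% of 27025 genes. They were Ctsa, Ctsd, Lamp1, Glb1, Naglu, Gaa, Lgmn and Gla. The shorter core CACGTG, which every match of the element also holds, was found in 9 of 26, or 34.6%, beside 8.09% of all genes. The element was in 3 of the 9 members with an entry that were higher in CL6G36 than in P19CL6, and in 5 of the 15 other tested members with an entry. The stretches of 110 bases up to the start of Ctsd and of Lamp1 are shown because each carries the element close to the start of a gene that differed between strains, and both were chosen after their values were seen. Capitals mark the element on either strand. Lamp1 held 4 copies in this stretch and Ctsd held 1 palindromic copy. The Ctsd stretch is chr7:142387828-142387937 on the minus strand and the Lamp1 stretch is chr8:13159051-13159160 on the plus strand, both from RefSeq in GRCm38.p6.
Ctsd: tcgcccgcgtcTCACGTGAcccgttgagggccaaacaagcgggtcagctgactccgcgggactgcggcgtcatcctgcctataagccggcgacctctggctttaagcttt
Lamp1: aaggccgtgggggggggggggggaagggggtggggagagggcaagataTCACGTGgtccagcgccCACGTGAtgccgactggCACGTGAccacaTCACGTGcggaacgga
A match of letters is a description of the window and not a measured binding site.

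The changes of the 29 members differed in number and direction between the 4 sublines. Each subline was compared with P19CL6, its parent strain, and a gene counted as higher or lower at an adjusted p under 0.05 in limma. CL6G36 had 11 members higher and 1 lower, or 41.4% of the 29, beside 13.5% of all genes tested, 6.83% higher and 6.72% lower. CL6G45 had 6 higher and 2 lower, or 27.6%, beside 13.3% of all genes, 6.55% higher and 6.71% lower. CL6G52 had 1 higher and 2 lower, or 10.3%, beside 3.18%, made up of 1.38% higher and 1.8% lower. Without CL6G52 replicate 1 it had 2 higher and 4 lower, beside 4.89% of all genes. CL6G26 had 0 higher and 2 lower, or 6.9%, beside 1.24%, made up of 0.417% higher and 0.827% lower. In CL6G26, 0 members were higher at an unadjusted p under 0.05 as well in limma, and 4 were lower, beside 618 and 800 of 13181 genes. The median log2 change of the members was 0.27 in CL6G36, 0.11 in CL6G45, -0.06 in CL6G52 and -0.02 in CL6G26, beside medians for all genes between -0.01 and 0.00. Members whose 5 subline arrays all lay above the 5 P19CL6 arrays numbered 12 in CL6G36, 6 in CL6G45, 0 in CL6G52 and 0 in CL6G26, beside 6.49%, 6.99%, 2.34% and 1.67% of all genes. Members with all subline arrays below numbered 2, 3, 3 and 3 in the same order, beside 5.85%, 6.75%, 2.54% and 2.48%. With the deposited scaling of the arrays, 5 members passed in CL6G36, 3 in CL6G45, 1 in CL6G52 and 2 in CL6G26. Of all 13181 genes, 329, 385, 171 and 34 then passed in the same order, in place of 1786, 1747, 419 and 164. That scaling moved the median of all genes by 0.13, 0.12 and 0.11 in CL6G26, CL6G45 and CL6G52, and the median of the members relative to all genes was then 0.27 in CL6G36, 0.07 in CL6G45, -0.09 in CL6G52 and 0.05 in CL6G26. Members that passed in CL6G36 had 10 other tested probe sets. Of these, 7 changed in the same direction, 5 of them past the threshold, and 0 passed in the opposite direction. In CL6G45 the counts were 7, 4 and 0 of 8.

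**Figure D1:**
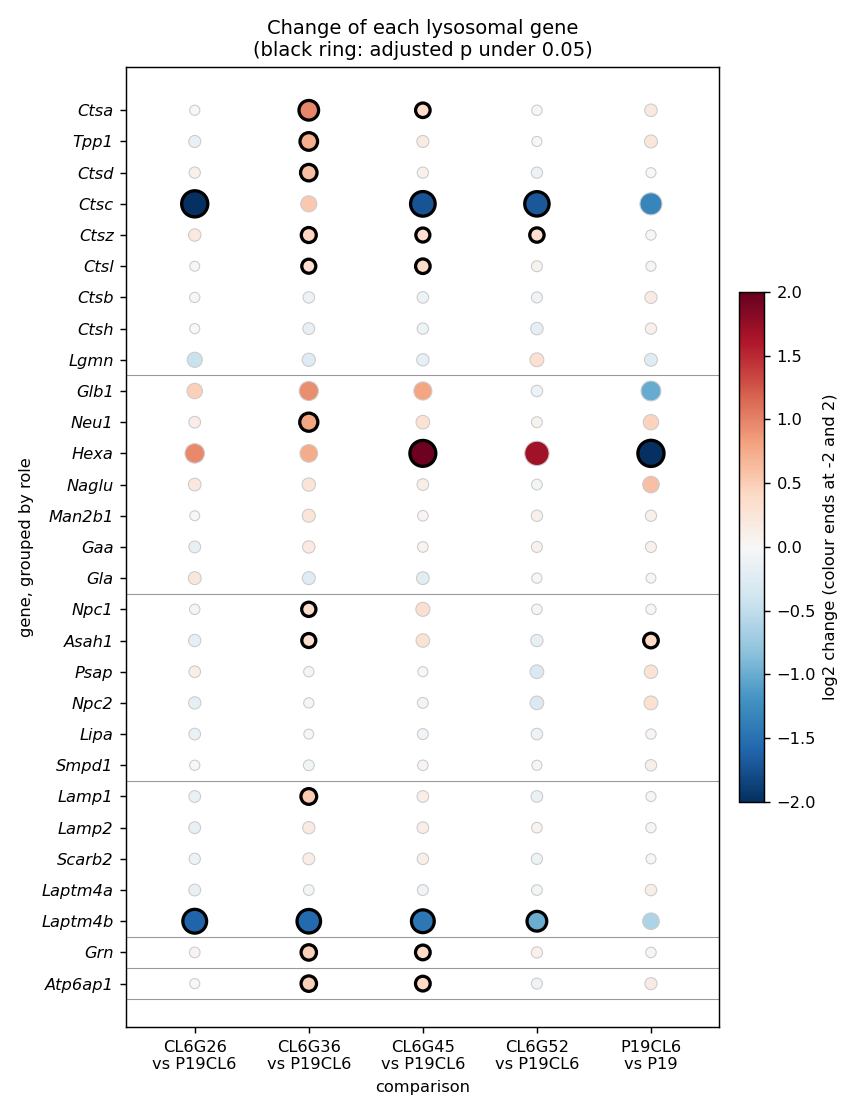
Log2 change of the 29 tested members (rows, grouped by role) in the 4 comparisons of a subline with P19CL6 and in P19CL6 against P19 (columns). Circle size and colour give the change, red where the strain named first is higher, and a black ring marks an adjusted p under 0.05. CL6G36 has 11 red and 1 blue ringed circles, and Laptm4b is ringed blue in every subline.

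Among the proteases, 5 of 9 were higher in CL6G36 than in P19CL6 and 0 lower, while CL6G45 had 3 higher and 1 lower. These are 55.6% and 44.4%, beside 13.5% and 13.3% of all genes. Ctsa encodes protective protein, a serine carboxypeptidase that also keeps Neu1 and Glb1 stable in a complex. Its log2 signals were 9.08, 8.67, 8.84, 8.74 and 8.85 in CL6G36 and 8.29, 8.31, 8.27, 8.19 and 8.16 in CL6G45, against 8.01, 8.03, 7.80, 7.52 and 7.93 in P19CL6. All CL6G36 and all CL6G45 arrays lay above all P19CL6 arrays. Ctsa rose by 0.98 on the log2 scale in CL6G36 (SE 0.11, adjusted p = 1.9e-07), which is 1.97-fold, and by 0.39 in CL6G45 (adjusted p = 0.0171), a call that was lost without P19CL6 replicate 4 (adjusted p = 0.0758). CL6G26 at 7.70 to 8.19, CL6G52 at 7.57 to 8.34 and P19 at 7.47 to 7.77 overlapped the P19CL6 range. A second Ctsa probe set on MOE430B differed by -0.31 and -0.48 in CL6G36 and CL6G45, opposite in sign and not past the threshold (adjusted p = 0.49 and 0.162).

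Tpp1, the tripeptidyl peptidase whose loss causes a neuronal ceroid lipofuscinosis, was also higher in CL6G36. It read 9.77, 10.08, 9.97, 9.77 and 9.92 there, against 9.34, 9.27, 8.92, 9.16 and 9.19 in P19CL6, with no overlap. The rise was 0.72 (SE 0.10, adjusted p = 2.08e-06), or 1.65-fold. CL6G45 averaged 9.34 ± 0.11 (SD, n = 5, as for all means here), a difference of 0.16 that did not pass (adjusted p = 0.27). Ctsd, the aspartic protease cathepsin D, read 9.81, 9.60, 9.89, 9.62 and 9.86 in CL6G36, against 9.10, 9.07, 9.30, 9.06 and 9.29 in P19CL6. The CL6G36 arrays lay above all others of this gene, and the rise was 0.59 (SE 0.09, adjusted p = 1.7e-05), or 1.51-fold. In CL6G45 Ctsd averaged 9.26 ± 0.04, within the P19CL6 range.

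2 cysteine proteases rose in both CL6G36 and CL6G45 by smaller amounts. Ctsl, cathepsin L, averaged 10.25 ± 0.10 in CL6G36 and 10.30 ± 0.09 in CL6G45, against 9.92 ± 0.13 in P19CL6 (SD, n = 5 each). The rises were 0.34 (adjusted p = 0.0018) and 0.39 (adjusted p = 0.000484), and neither subline overlapped P19CL6. Ctsz, the carboxypeptidase cathepsin Z, averaged 8.97 ± 0.12 in CL6G36, 8.88 ± 0.16 in CL6G45 and 8.91 ± 0.21 in CL6G52, against 8.54 ± 0.15 in P19CL6. Its rises were 0.43, 0.34 and 0.37 (adjusted p = 0.00127, 0.0122 and 0.0197), and the CL6G52 arrays overlapped those of P19CL6. The call in CL6G52 was lost without P19CL6 replicate 3 or 5 or CL6G52 replicate 3 or 5, and in CL6G45 without CL6G45 replicate 2, its highest array. Ctsb, cathepsin B, stayed between 8.33 and 8.49 in mean signal over the 6 strains, and the weak Ctsh between 4.2 and 4.40, with no call in any comparison.

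Ctsc, the dipeptidyl peptidase cathepsin C that activates serine proteases of immune granules, fell in 3 of the 4 sublines. Its log2 signals were 1.43, 1.34, 3.91, 3.13 and 2.91 in CL6G26, against 6.25, 6.36, 5.98, 6.20 and 5.96 in P19CL6. Every CL6G26 array lay below the floor and every P19CL6 array above it, which makes the signal in CL6G26 lower by at least 2.90-fold (adjusted p = 9.86e-07). In CL6G45 it read 4.28, 4.66, 4.55, 4.24 and 4.35, and in CL6G52 4.69, 3.79, 4.57, 4.08 and 5.15. These straddled the floor, with 1 and 2 of 5 arrays above it, and lay below all P19CL6 arrays. Ctsc fell by 1.73 in CL6G45 (SE 0.42, adjusted p = 0.00383) and by 1.69 in CL6G52 (adjusted p = 0.0153), which are fitted differences and not measured sizes. Without P19CL6 replicates 1 and 2 the call in CL6G52 was lost. In CL6G36 it read 6.70, 7.01, 6.51, 6.82 and 6.44, all above the P19CL6 arrays, and the difference of 0.55 did not pass (adjusted p = 0.411).

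**Figure D2:**
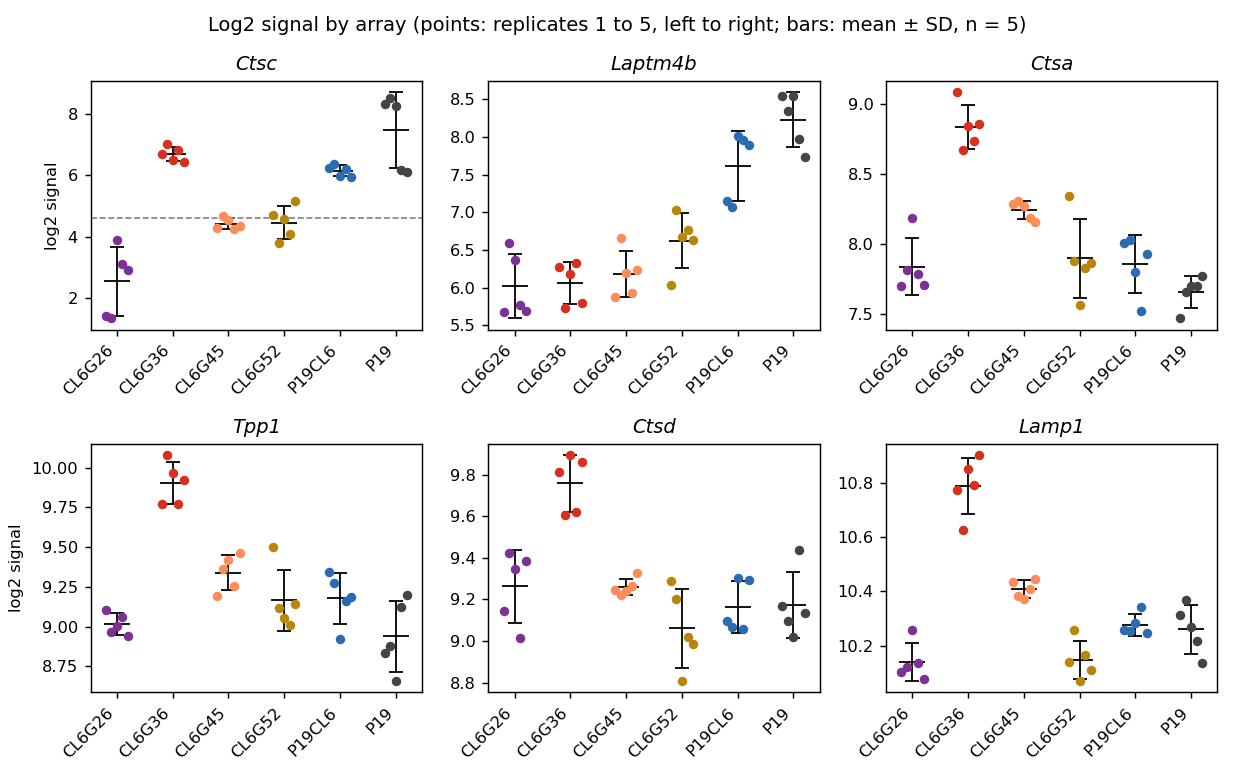
Log2 signal of 6 members on every MOE430A array, by strain, with points for replicates 1 to 5 and bars for the mean and SD of 5 arrays. The dashed line in the Ctsc panel is the detection floor at 4.61; all 5 CL6G26 arrays lie below it, and the P19 arrays form a group of 3 at 8.26 to 8.50 and a pair at 6.10 and 6.16.

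Lgmn, the asparaginyl endopeptidase legumain, did not pass against P19CL6 in any subline but separated the sublines from each other. It read 6.48, 6.70, 7.12, 7.08 and 7.32 in CL6G52, against 6.11, 6.29, 6.27, 6.13 and 6.05 in CL6G26. All CL6G52 arrays lay above all CL6G26 arrays, with a difference of 0.77 (SE 0.14, adjusted p = 0.000669), beside 4.31% of all genes past the threshold in that pair. Without CL6G52 replicate 1, the lowest of its 5 arrays, Lgmn also passed against P19CL6, at 0.44 (adjusted p = 0.0477).

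Of the 7 glycosidases tested, 1 was higher in CL6G36 and 1 in CL6G45, or 14.3% each, near the 13.5% and 13.3% of all genes. Neu1, the sialidase that works in the complex with Ctsa, averaged 6.82 ± 0.31 in CL6G36, against 6.03 ± 0.16 in P19CL6. Its arrays read 6.58, 6.81, 7.36, 6.66 and 6.70 in CL6G36, against 6.22, 5.80, 6.0, 6.05 and 6.11 in P19CL6. The groups did not overlap, and the rise was 0.79 (SE 0.20, adjusted p = 0.00509). A second probe set of Neu1 differed by -0.47 in CL6G36 (adjusted p = 0.223) and by -0.96 in CL6G45 (adjusted p = 0.01), while the probe set used here differed by 0.30 in CL6G45 (adjusted p = 0.326), so the probe sets of this gene disagree. Averaged over both, Neu1 did not pass in CL6G36.

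Hexa, the α subunit of β-hexosaminidase A, which degrades GM2 ganglioside, was near or below the floor in every subline. It was bright enough for a test only through P19 replicates 1 to 3. It read 4.54, 3.89, 4.37, 4.92 and 4.47 in CL6G45, with 1 array above the floor, against 1.94, 3.66, 2.09, 1.8 and 2.92 in P19CL6, with none. The arrays did not overlap and the difference of 1.96 passed (adjusted p = 0.0384), but with signals raised to the floor the difference was 0.06 and did not pass, and 11 of 19 alternatives ended the call, among them leaving out P19CL6 replicate 1, 3, 4 or 5 or CL6G45 replicate 1, 3, 4 or 5. Glb1, the lysosomal β-galactosidase, differed by 0.92 in CL6G36 and 0.78 in CL6G45 with an SE of 0.47, and did not pass (adjusted p = 0.186 and 0.277). Naglu and Man2b1, which act on heparan sulfate and on mannose-containing glycans, ran over strain means of 4.35 to 5.22 and 7.29 to 7.64, and Gaa, which degrades glycogen, from 6.56 to 6.89. None of these passed against P19CL6. Gla, the α-galactosidase, averaged 6.38 ± 0.11 in CL6G36 and 6.40 ± 0.13 in CL6G45, against 6.85 ± 0.25 in CL6G26. It fell by 0.47 and 0.45 relative to CL6G26 (adjusted p = 0.0184 and 0.0258), the only member lower in either of these 2 pairs.

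Of 6 genes of lipid handling, 2 were higher in CL6G36 and none passed in CL6G26, CL6G45 or CL6G52. The 2 are 33.3%, beside 13.5% of all genes in CL6G36. Asah1, acid ceramidase, averaged 9.33 ± 0.09 in CL6G36, against 8.99 ± 0.13 in P19CL6, a rise of 0.34 (adjusted p = 0.0264). It did not pass without P19CL6 replicate 1 or 2 or both, nor without CL6G36 replicate 1. Npc1, which exports cholesterol from the lysosome, averaged 6.05 ± 0.11 in CL6G36, against 5.69 ± 0.20 in P19CL6, with overlapping arrays. Its difference of 0.36 was near the threshold (adjusted p = 0.0444), and 12 of 20 alternatives ended the call. Its partner Npc2 ran over strain means of 10.24 to 10.58, and Psap, the precursor of the saposins that help enzymes reach their lipids, of 8.73 to 9.16. Both passed as lower in CL6G52 without its replicate 1, by 0.39 for Npc2 and 0.34 for Psap (adjusted p = 0.035 and 0.0475). Lipa, acid lipase, and Smpd1, acid sphingomyelinase, had strain means of 6.57 to 6.70 and 7.47 to 7.62 with no call, although another Lipa probe set fell by 0.44 in CL6G36 (adjusted p = 0.0396).

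The membrane proteins divided. Lamp1, the most abundant protein of the lysosomal membrane, read 10.77, 10.63, 10.85, 10.79 and 10.90 in CL6G36, against 10.26, 10.25, 10.28, 10.34 and 10.25 in P19CL6. All CL6G36 arrays lay above all P19CL6 arrays. Lamp1 rose by 0.51 (SE 0.05, adjusted p = 1.99e-08), or 1.43-fold, which with the deposited scaling was 0.46 and did not pass (adjusted p = 0.082). CL6G45 arrays, at 10.37 to 10.45, also lay above every P19CL6 array, with a difference of 0.13 that did not pass (adjusted p = 0.083). Lamp2, a related membrane glycoprotein, and Scarb2, which carries glucocerebrosidase to the lysosome, had strain means of 6.42 to 6.74 and 7.50 to 7.76 and did not pass against P19CL6.

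Laptm4b, a membrane-spanning protein of late endosomes and lysosomes, was the one member that fell in all 4 sublines. It read 5.68, 6.59, 6.37, 5.77 and 5.70 in CL6G26 and 6.28, 5.74, 6.19, 6.33 and 5.80 in CL6G36, against 7.15, 7.08, 8.01, 7.96 and 7.90 in P19CL6. In CL6G45 it read 5.88, 6.66, 6.20, 5.93 and 6.23, and in CL6G52 6.03, 7.03, 6.67, 6.76 and 6.63. Every subline array lay below every P19CL6 array, and P19CL6 replicates 1 and 2 were the lowest of their strain. Laptm4b fell by 1.60 in CL6G26, 1.55 in CL6G36, 1.44 in CL6G45 and 0.99 in CL6G52 (SE 0.22 each, adjusted p = 1.64e-05, 4.7e-06, 2.02e-05 and 0.00577). The 2 other Laptm4b probe sets fell too, by 1.66 and 1.49 in CL6G26, 1.72 and 1.62 in CL6G36, 1.89 and 1.58 in CL6G45 and 0.84 and 1.30 in CL6G52, all past the threshold. Its paralogue Laptm4a had strain means of 10.28 to 10.42 and did not pass in any comparison. All 3 probe sets of Laptm4b passed in each subline, and the call of the one read for this gene held under each of 20 alternatives per subline.

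Grn and Atp6ap1 rose together in CL6G36 and CL6G45. Grn encodes progranulin, a secreted precursor that is cut into granulins in the lysosome. It averaged 8.09 ± 0.15 in CL6G36 and 8.01 ± 0.32 in CL6G45, against 7.61 ± 0.18 in P19CL6, rises of 0.48 and 0.40 (adjusted p = 0.01 and 0.0319). In CL6G45 replicate 1 at 8.53 was the highest array, and without it the call was lost, as it was without CL6G45 replicate 4 and without P19CL6 replicate 1, 2, 3 or 4. Without P19CL6 replicates 1 and 2 together, Grn did not pass in either subline. The 2 other probe sets of Grn rose by 0.74 and 0.78 in CL6G36 and by 0.45 and 0.43 in CL6G45. Atp6ap1, an accessory subunit of the vacuolar ATPase, averaged 8.15 ± 0.15 in CL6G36 and 8.07 ± 0.09 in CL6G45, against 7.67 ± 0.13 in P19CL6. The rises were 0.48 and 0.40 (adjusted p = 0.00815 and 0.0279), and in neither subline did its arrays overlap those of P19CL6. The call in CL6G45 was lost without P19CL6 replicate 3 or 5, or without CL6G45 replicate 1 or 2.

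CL6G36 and CL6G45 shared 5 members that were higher than in P19CL6, namely Ctsa, Ctsl, Ctsz, Grn and Atp6ap1, and both comparisons use the same P19CL6 arrays. A further 6 members, Ctsd, Tpp1, Lamp1, Neu1, Npc1 and Asah1, passed as higher in CL6G36 and did not pass in CL6G45, and Hexa passed in CL6G45 and did not pass in CL6G36. In the direct comparison of CL6G45 with CL6G36, Ctsd, Tpp1 and Lamp1 passed, while Neu1, Npc1, Asah1 and Hexa did not (adjusted p = 0.183, 0.962, 0.885 and 0.342). That comparison found 0 members higher and 5 lower in CL6G45, or 17.2% of the 29, beside 3% of all genes past the threshold, 1.37% higher and 1.63% lower. At an unadjusted p under 0.05 in limma, 0 members were higher and 6 lower, beside 984 and 984 of 13181 genes. Ctsa averaged 8.24 ± 0.07 in CL6G45, against 8.84 ± 0.16 in CL6G36, and Ctsd 9.26 ± 0.04, against 9.76 ± 0.14. Tpp1 averaged 9.34 ± 0.11 in CL6G45, against 9.90 ± 0.13 in CL6G36, Lamp1 10.41 ± 0.03, against 10.79 ± 0.10, and Ctsc 4.42 ± 0.18, against 6.70 ± 0.23. These 5 fell by 0.59, 0.50, 0.56, 0.38 and 2.28, with adjusted p of 0.00135, 0.000697, 0.000314, 1.27e-05 and 0.00077, and in each case all CL6G45 arrays lay below all CL6G36 arrays. In all 6 members did so, beside 3.17% of all genes. Ctsc lay above the floor on 1 of 5 CL6G45 arrays, so its fall of 2.28 is a fitted difference and not a measured size. Of 2 other tested probe sets of the 5 members that passed, that of Ctsa fell as well, that of Tpp1 did not, and 0 passed.

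For most members that differed among the sublines, CL6G26 or CL6G52 had the lowest mean. Over the 4 sublines, a moderated F test passed for 15 of the 29 members, or 51.7%, beside 23.2% of all genes. Of these 15, CL6G36 had the highest mean for 11 and CL6G45 for 1, while CL6G26 had the lowest mean for 10 and CL6G52 for 4. Gla and Psap had their highest mean in CL6G26 and Lgmn in CL6G52, and Gla had its lowest in CL6G36. CL6G52 against CL6G36 had 1 member higher and 13 lower, beside 13.1% of all genes past, 5.68% higher and 7.46% lower. CL6G36 against CL6G26 had 12 higher and 1 lower, beside 14.1%, 7.67% higher and 6.41% lower. CL6G45 against CL6G26 had 8 higher and 1 lower, beside 13.2%, 7.14% higher and 6.11% lower. CL6G52 against CL6G45 had 1 higher and 6 lower, beside 11.1%, 5.15% higher and 5.91% lower. CL6G52 against CL6G26 had 2 higher and 1 lower, beside 4.31%, 2.28% higher and 2.03% lower. Without CL6G52 replicate 1, the pairs with CL6G36, CL6G45 and CL6G26 had 3, 2 and 3 members higher in CL6G52 and 14, 10 and 1 lower, beside 17.6%, 16.2% and 6.08% of all genes, and the F test passed for 17 members. The 1 member higher in CL6G52 than in CL6G36 and in CL6G45 was Lgmn in both pairs. Psap was the member lower in CL6G52 than in CL6G26, by 0.43 (adjusted p = 0.00776). Ctsc was at least 4.24-fold higher in CL6G36 than in CL6G26 (adjusted p = 1.49e-08), where no array was above the floor. With the deposited scaling the F test passed for 5 members. For the F test in that setting and without CL6G52 replicate 1, no share of all genes is given.

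In P19CL6 against P19, 1 member was higher and 1 lower, or 6.9% of the 29, beside 4.46% of all genes, 2.57% higher and 1.89% lower. No member separated all P19CL6 arrays from all P19 arrays, above or below, beside 1.01% and 1.22% of all genes. Asah1 read 8.90, 8.85, 9.0, 9.01 and 9.19 in P19CL6, against 8.47, 8.26, 8.52, 8.89 and 8.83 in P19. P19 replicates 4 and 5 lay inside or next to the P19CL6 range and replicates 1 to 3 below it, and the rise was 0.40 (SE 0.11, adjusted p = 0.026). Of 22 alternatives 8 ended this call, among them leaving out P19 replicate 1, 2 or 3 or P19CL6 replicate 5. All 5 P19CL6 arrays of Hexa lay below the floor, at 1.8 to 3.66, against 6.0, 5.79, 6.10, 1.67 and 3.77 on the 5 P19 arrays, of which the first 3 were above it. It was at least 1.04-fold lower in P19CL6 (adjusted p = 0.0463), and 13 of 21 alternatives ended the call, among them leaving out P19 replicate 1, 2 or 3 or P19CL6 replicate 1, 3, 4 or 5. Hexa was tested only through these first 3 P19 arrays, where it was high, so its p-value here is a description. Ctsc ranged over 5.96 to 6.36 in P19CL6, against 8.34, 8.50, 8.26, 6.16 and 6.10 in P19. Here too the last 2 P19 arrays lay within the P19CL6 range and the first 3 above it, and the difference of -1.32 did not pass (adjusted p = 0.055).

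Without P19 replicates 4 and 5, 11 of the 29 members passed, beside 19.6% of all genes tested. Higher in P19CL6 were then Asah1 by 0.58, Npc2 by 0.55, Psap by 0.45, Tpp1 by 0.39, Laptm4a by 0.31, Ctsb by 0.24 and Neu1 by 0.87, and lower were Ctsc by 2.22 and Laptm4b by 0.86. For the other 2 members, 1 strain was below the floor on every array left, P19 for Naglu and P19CL6 for Hexa. Naglu exceeded P19 by at least 1.26-fold (adjusted p = 0.00394), and Hexa was lower than in P19 by at least 2.55-fold (adjusted p = 3.77e-05). The p-value of Hexa is again a description, since the gene was tested only through the P19 arrays in which it was high. Without those P19 arrays, 4 of 11 extraembryonic endoderm markers were higher and 1 lower in P19CL6, 2 of 10 pluripotency markers higher and 2 lower, 1 of 5 fibroblast markers higher and 2 lower, 1 of 6 macrophage markers higher and 1 of 5 neural markers higher. The part of these markers in the result was not tested. Without P19 replicates 1 to 3, 0 members and 0 of all genes passed. The Gapdh 3′ to 5′ signal ratio, a measure of RNA integrity, was 0.835 to 0.887 in P19CL6 and 0.908 to 0.954 in P19 on MOE430A, and its part in the result was not tested.

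**Figure D3:**
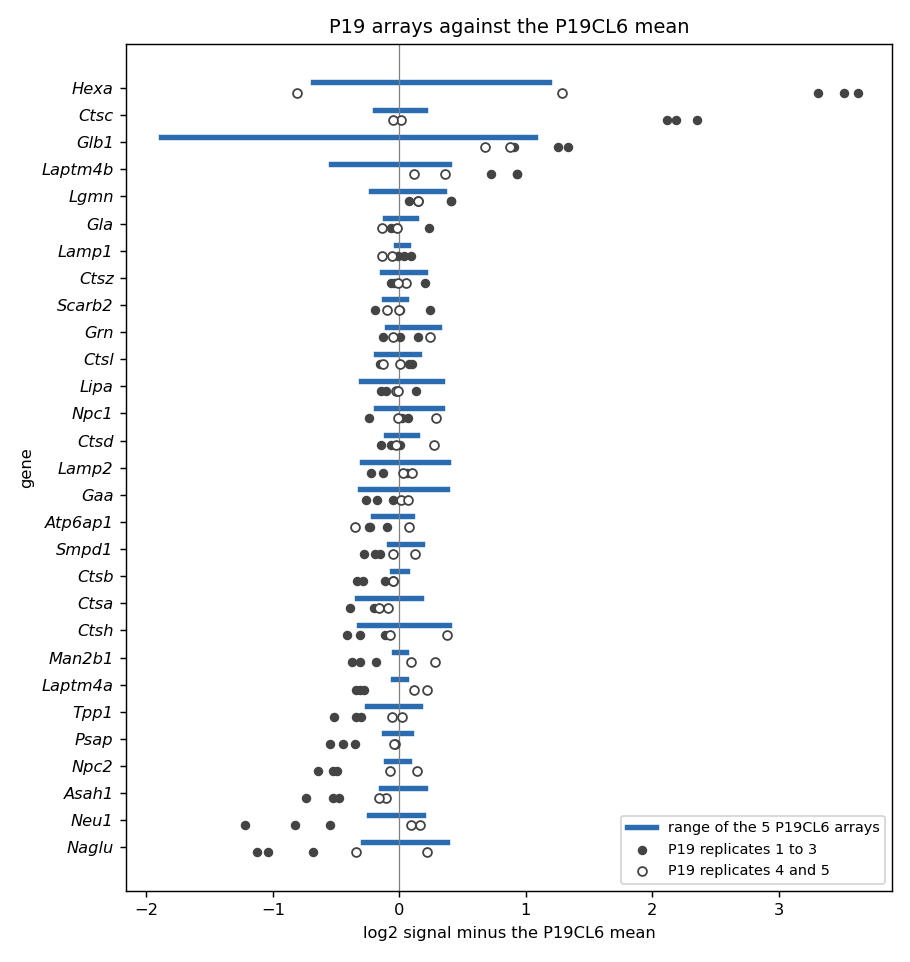
Log2 signal of each P19 array minus the P19CL6 mean (horizontal axis, so that points to the right are higher in P19) for the 29 tested members (rows). Blue lines span the 5 P19CL6 arrays, filled points are P19 replicates 1 to 3 and open points replicates 4 and 5. For Ctsc the filled points lie at 8.26 to 8.50 in log2 signal while the open points lie within the P19CL6 range.

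Other genes of the lysosomal pathway were taken from lists drawn up by function. Of 16 tested subunits of the vacuolar ATPase, 7 were higher and 0 lower in CL6G36, and 4 higher and 2 lower in CL6G45, with median changes of 0.23 and 0.09. That is 43.8% and 37.5% of the subunits, beside 13.5% and 13.3% of all genes. Atp6v0d1, a subunit of the membrane sector, rose by 0.80 in CL6G36 (adjusted p = 8.28e-09) and by 0.65 in CL6G45 (adjusted p = 8.3e-07). Atp6v1d, Atp6v1g1 and Atp6v1c1, of the cytosolic sector, rose by 0.43, 0.52 and 0.30 in CL6G36. In CL6G45 the subunit Atp6v0e fell by 0.41 (adjusted p = 0.0014). With the deposited scaling 1 subunit was higher in each of these 2 sublines and 0 lower. In CL6G26 0 of the 16 passed and in CL6G52 0 were higher and 1, Atp6v1h, lower, beside 1.24% and 3.18% of all genes.

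Of 20 tested genes of mannose 6-phosphate tagging and endosomal sorting, 5 were higher and 0 lower in CL6G36, and 1 higher and 1 lower in CL6G45. That is 25% of the list in CL6G36, beside 13.5% of all genes, and 10% in CL6G45, below the 13.3% of all genes. Vps11, a core subunit of the tethering complexes that fuse endosomes with lysosomes, rose by 0.75 in CL6G36 (adjusted p = 7.47e-06). Vps35 and Vps26a, of the retromer that returns receptors to the Golgi, rose by 0.44 and 0.31 there, and the sorting receptor Sort1 rose by 0.25. Sort1 was also higher in CL6G45, by 0.35, and in CL6G52, by 0.32. Without P19CL6 replicates 1 and 2 the count in CL6G36 was 2, and with the deposited scaling 1.

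Of 27 further lysosomal enzymes tested, 3 were higher in CL6G36 and 2 in CL6G45, or 11.1% and 7.41%, below the 13.5% and 13.3% of all genes, and with the deposited scaling 0 and 1. Among them was the carboxypeptidase Scpep1, higher by 0.49 and 0.46 (adjusted p = 3.69e-05 and 9.93e-05). In CL6G52 2 were lower, the arylsulfatase Arsa by 0.31 and the phospholipase Pla2g15 by 0.44, and without its replicate 1 the count was 3. The 2 are 7.41% of the list, beside 3.18% of all genes in CL6G52. Of 21 other lysosomal membrane proteins, 3 were higher and 2 lower in CL6G36, and 2 higher in CL6G45, or 23.8% and 9.52% of the list. These lie beside 13.5% and 13.3% of all genes, so the share in CL6G45 is below that of all genes. The deposited scaling left 1 higher in CL6G36, and 0 passed in CL6G45, and without CL6G52 replicate 1 there were 2 lower in CL6G52. Mcoln1, the calcium channel of the lysosomal membrane, averaged 8.55 ± 0.10 in CL6G36 and 8.12 ± 0.11 in CL6G45, against 7.73 ± 0.09 in P19CL6, rises of 0.82 and 0.39 (adjusted p = 1.16e-05 and 0.0236). Clcn7, the chloride transporter of lysosomes, rose by 0.43 in CL6G36, and Litaf fell by 0.42.

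Of 16 tested genes of the TFEB family and of nutrient sensing at the lysosome, 4 were higher and 1 lower in CL6G36, and 3 higher and 1 lower in CL6G45. That is 31.2% and 25% of the list, beside 13.5% and 13.3% of all genes. Rragc, a small GTPase that brings mTORC1 to the lysosome, rose by 0.60 and 0.49 (adjusted p = 3.06e-05 and 0.00052), and Lamtor5 fell by 0.34 and 0.24 (adjusted p = 0.00122 and 0.0232). Mitf was higher in CL6G45 by 0.71 (adjusted p = 0.0164), from signals near the floor. Tfeb itself was not among the 16 genes tested. Tfe3 had strain means of 8.58 in CL6G36 and 8.45 in CL6G45, against 8.47 in P19CL6. Of 18 autophagy genes, 4 were higher and 1 lower in each of CL6G36 and CL6G45, or 27.8% in each, beside 13.5% and 13.3% of all genes. Sqstm1, the receptor p62, rose by 0.74 and 0.38 (adjusted p = 3.37e-06 and 0.00975), and Gabarapl1, which coats autophagosomes, by 0.59 and 0.56. In CL6G26 and CL6G52, 0 of these 2 lists passed, and without CL6G52 replicate 1 there was 1 nutrient-sensing gene lower there. With the deposited scaling, 0 of the 16 nutrient-sensing genes passed in CL6G36 or CL6G45, and 1 autophagy gene in each.

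**Figure D4:**
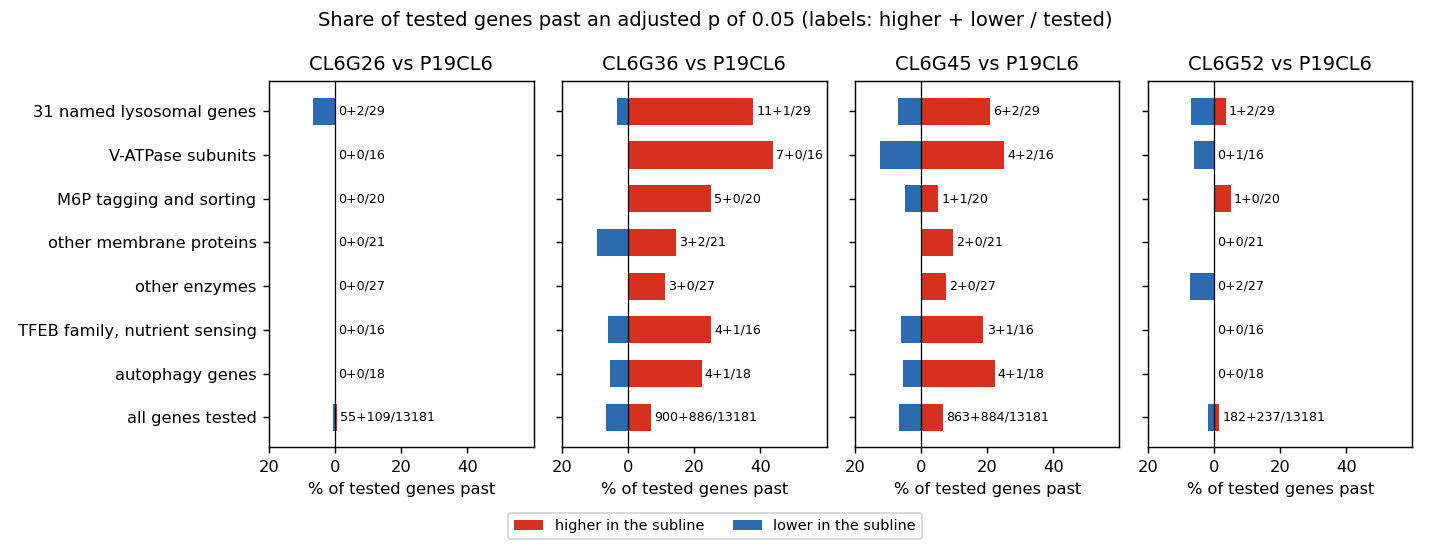
Share of tested genes that were higher (red, to the right) or lower (blue, to the left) at an adjusted p under 0.05 in each subline against P19CL6, for the named lysosomal genes, 6 lists of related genes and all genes tested. Bars start at 0 and labels give higher plus lower over tested. The named genes reach 11 higher of 29 and the vacuolar ATPase subunits 7 of 16 in CL6G36, beside 900 of 13181 genes.

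Inhibitors of proteases were listed apart. Cst3, cystatin C, a secreted inhibitor of cysteine cathepsins, averaged 8.42 ± 0.07 in CL6G36, 8.30 ± 0.15 in CL6G45 and 8.48 ± 0.13 in CL6G26, against 8.98 ± 0.22 in P19CL6. It fell by 0.56, 0.68 and 0.50 (adjusted p = 6.73e-05, 7.42e-06 and 0.00195). Cstb, cystatin B, fell by 0.31 in CL6G36 and 0.25 in CL6G45 (adjusted p = 0.00119 and 0.00683). Of the 9 inhibitors tested, 2 were lower and 1 higher in each of CL6G36 and CL6G45, 1 was lower in CL6G26, and 0 passed in CL6G52, or 1, higher, without its replicate 1. The shares were 33.3%, 33.3% and 11.1% in CL6G36, CL6G45 and CL6G26, beside 13.5%, 13.3% and 1.24% of all genes. With the deposited scaling 0 were higher and 1 lower in each of CL6G36 and CL6G45. In CL6G26 0 then passed, so the fall of Cst3 there was lost.

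Other gene groups moved in CL6G36 and CL6G45, and some endoplasmic reticulum stress genes were higher in CL6G26 and CL6G52 as well. Of 16 endoplasmic reticulum stress genes, 15 were higher in CL6G36 and 15 in CL6G45, 6 in CL6G52 and 5 in CL6G26, and 0 were lower. These shares of 93.8%, 93.8%, 37.5% and 31.2% lie beside 13.5%, 13.3%, 3.18% and 1.24% of all genes. The deposited scaling gave 10, 12, 1 and 3 higher in the same order, and without its replicate 1 CL6G52 had 5 higher and 1 lower. Hspa5, the main chaperone of the endoplasmic reticulum, rose by 0.95 in CL6G36. Among markers of extraembryonic endoderm, a tissue with active lysosomes, 0 of 11 were higher, with 3 lower in CL6G36 and 5 in CL6G45. The lower ones are 27.3% and 45.5%, beside 6.72% and 6.71% of all genes. With the deposited scaling 2 were lower in each of these 2 sublines. The summed linear signal was 2428 to 2767 in CL6G36 and 1854 to 2104 in CL6G45, against 2320 to 2863 in P19CL6. Among the pluripotency markers 1 was higher and 2 lower in CL6G36, and 2 higher and 2 lower in CL6G45, with Nanog lower by 1.10 and 1.02. These are 30% and 40% of the 10 tested, beside 13.5% and 13.3% of all genes. With the deposited scaling 0 were higher and 1 lower in CL6G36, and 1 higher and 1 lower in CL6G45. The summed signal was 11540 to 12597 and 12367 to 13144, against 11419 to 12340 in P19CL6. The macrophage markers summed to 167 to 195 in CL6G36 and 159 to 211 in CL6G45, against 156 to 208 in P19CL6, and of these 6 markers only Csf1r lay above the floor on all 30 arrays. The part of these groups in the lysosomal changes was not tested. In cultures measured in bulk, fewer cells of a type and less RNA per cell cannot be told apart.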

How the data were processed

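The deposited values were linear signal intensities from the GCOS software, per the submitters' processing notes, for 2 array types. Neither the labels nor those notes state GCOS's version or its scaling target. The deposited scaling left array medians at 30.2 to 53.4 on MOE430A and 10.6 to 16.5 on MOE430B, so the intensities were quantile normalized within each array type, set to at least 1 and taken to log2. A detection floor was placed at the 40th percentile on MOE430A and the 60th on MOE430B (log2 4.613 and 4.145). Probe sets above it on at least 5 of 30 arrays were tested, without 64 control probe sets per type. Genes were named from the platform annotation and read from 1 probe set each, the brightest, with MOE430A before MOE430B and probe sets marked x_at (shared sequence) only where there was no other; of the members' 65 probe sets, 54 were tested.

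Strain means were fitted across all genes with limma 3.58.1 in R 4.3.3, with a trended moderated variance on 24 residual degrees of freedom. P-values are two-sided, Benjamini-Hochberg adjusted over all probe sets tested on an array type, and passed at 0.05. Each "at least" fold compares the mean of the brighter strain with the floor in place of a strain that was below it on every array. The fit was tested on simulated data, in which small changes were recovered less often than large ones. The number of arrays limits the precision.

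The members and lists were chosen with earlier results of these data known. Members at least 2-fold changed and past the threshold are given array by array, with the 6 further members of smallest adjusted p in each direction and up to 4 genes per list. Other members were named after their values were seen, to account for each role. Lists not described further were fibroblast and neural markers, with 5 tested genes each: 1 fibroblast marker was lower in CL6G45 and 1 in P19CL6 against P19, and 0 neural markers passed in any of the 5 comparisons.

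Alternatives were other scalings, filters and variance models, the mean of a gene's probe sets, a replicate block and leaving out single arrays or those that stood apart. The counts of the vacuolar ATPase and endoplasmic reticulum stress lists under other settings, those of the other lists, and the counts per pair without CL6G52 replicate 1 were added after seeing the data.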

Additional observations from a re-analysis of the deposited data

Results flagged for a closer look

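Among 174 groups of 5 arrays, 1 per tested member and strain, 13 held an array far from the other 4. Chance alone would give about 1 such group in 20. Proteases with such an array were Ctsa, at 8.19 in CL6G26 replicate 3, Ctsl, at 10.08 in CL6G36 replicate 1, Ctsz, at 9.16 in CL6G45 replicate 2, and Tpp1, at 9.5 in CL6G52 replicate 1. Lgmn read 6.81 in CL6G36 replicate 3 and 6.79 in CL6G45 replicate 1. Glycosidases were Neu1, at 7.36, and Man2b1, at 8.05, both in CL6G36 replicate 3. Genes of lipid handling were Asah1, at 9.05 in CL6G45 replicate 3, and Smpd1, at 7.75 in P19CL6 replicate 5. Scarb2 read 7.48 in P19CL6 replicate 2, and Grn read 8.35 in CL6G36 replicate 3 and 7.93 in P19CL6 replicate 5. CL6G36 replicate 3 thus stood apart for 4 members, Lgmn, Neu1, Man2b1 and Grn, and was the highest array for each.

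Differences between the sublines were tested by the moderated F test over their 4 means, and 15 members passed. The range between the highest and lowest subline mean was 4.15 log2 units for Ctsc (adjusted p = 1.52e-07 in limma), a fitted difference and not a measured size, since in CL6G26 Ctsc lay below the floor on every array. The bound for CL6G36 over CL6G26 was at least 4.24-fold. The proteases Ctsa, Tpp1, Lgmn, Ctsd and Ctsl had ranges of 1, 0.89, 0.77, 0.7 and 0.39. The membrane proteins Lamp1 and Scarb2 had ranges of 0.65 and 0.26, and the smallest adjusted p of the members was that of Lamp1, at 1.03e-10. The glycosidases Neu1 and Gla had ranges of 0.72 and 0.47, and Asah1, Psap and Npc1, of lipid handling, ranges of 0.52, 0.43 and 0.39. Atp6ap1 and Grn had ranges of 0.56 and 0.42. Laptm4b, which was lower than P19CL6 in each subline, did not pass between the sublines (adjusted p = 0.0953).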

How the results depend on the processing

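With the deposited scaling the number of members past the threshold was 5 in CL6G36, 3 in CL6G45 and 1 in CL6G52, against P19CL6, 0 in P19CL6 against P19, 5 in the F test among sublines and 11 over the 6 pairs of sublines, in place of 12, 8, 3, 2, 15 and 51. Of 13181 genes, 329, 385, 171 and 48 then passed in the first 4 of these comparisons, in place of 1786, 1747, 419 and 588. In P19CL6 against P19 the count was 1 with no filter, 1 with no variance trend, 0 with only the strains compared in the fit, 0 without P19CL6 replicates 1 and 2, 11 without P19 replicates 4 and 5, and 0 without P19 replicates 1 to 3, where Ctsc changed direction, at 0.0168. Leaving out 1 replicate at a time gave 0 to 8 members in P19CL6 against P19, 2 to 2 in CL6G26, 10 to 12 in CL6G36, 5 to 8 in CL6G45, 2 to 6 in CL6G52, 12 to 17 in the F test and 43 to 60 over the pairs. The P19CL6 against P19 count was 0 without P19 replicate 1, 2 or 3 or P19CL6 replicate 5, and 8 without P19 replicate 4 or 5. The CL6G45 count was 5 without P19CL6 replicate 3 or 4, and the CL6G52 count was 6 without its replicate 1. Of 564 alternatives to 28 member changes, 475 kept direction and side of the threshold, 88 changed side and 1 changed direction. Laptm4b in each subline, Ctsc in CL6G26 and CL6G45, and Ctsa, Ctsd and Tpp1 in CL6G36 kept both under all 20 alternatives run for each. The cause of the changed calls was not tested. Samples with the same replicate number did not deviate together: the median correlation was -0.00545 on MOE430A and -0.000736 on MOE430B, and 3 and 6 of 30 arrays correlated best with their own number. With the replicate block, counts were 2 in P19CL6 against P19, 2 in CL6G26, 11 in CL6G36, 8 in CL6G45 and 3 in CL6G52, with 15 in the F test and 48 over the pairs. Signals of Ctsh, Hexa and, in CL6G26, CL6G45 and CL6G52, Ctsc lay mostly below the floor, where differences are bounds at best.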
